A study of Homo sapiens with 72 samples.

Results

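The transcripts described here are those of 10 genes that encode regulators of mRNA decay, out of the 60371 genes listed for each library. They form 3 families. The ZFP36 family is represented by ZFP36, ZFP36L1 and ZFP36L2, the Regnase family by ZC3H12A and ZC3H12C, and the BTG/TOB family by BTG1, BTG2, BTG3, TOB1 and TOB2. The genes were chosen by name, as unstable mRNAs that encode decay regulators, and the rule uses no measured value. Each symbol was paired with 1 Ensembl identifier, and all 10 genes had enough counts to be tested in every comparison made.

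ZFP36 proteins bind AU-rich elements in 3′ untranslated regions and bring the CCR4-NOT deadenylase to the bound mRNA, which shortens its poly(A) tail. Regnase proteins are endoribonucleases that cut stem-loops in 3′ untranslated regions, and ZC3H12A, also called Regnase-1, acts on mRNAs of inflammation. BTG and TOB proteins bind the CNOT7 and CNOT8 deadenylases and stimulate removal of poly(A) tails, and several of them restrain cell proliferation. Many mRNAs of these regulators are short-lived themselves, and some are immediate-early genes, which are transcribed within minutes of a stimulus.

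Levels were measured by population RNA-seq in U2OS cells, a human osteosarcoma line, from 72 wells collected after 12 h. Of these, 18 wells served as DMSO controls, and each of 6 compounds was given at 100, 1000 and 10000 nM to 3 wells per dose. Triptolide blocks transcription initiation through the ERCC3 subunit of TFIIH, and homoharringtonine blocks the ribosome. Pyrazolanthrone is a JNK inhibitor, nilotinib a BCR-ABL kinase inhibitor, MK-2206 an AKT inhibitor and miglitol an inhibitor of intestinal glucosidases. The sources used here do not state whether wells were separate cultures, so that p-values measure the spread between wells, which may be technical. All values come from 1 cell line, for which the labels name no genetic change. RNA was purified from the cells collected from each well, so that fewer cells and less RNA per cell cannot be told apart.

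Sums of expected counts, the estimated number of reads per gene, ranged from 0.0708 to 68.3 mil per well with a median of 38.4 mil. Only 3 wells were under 10 mil, namely replicate 2 of 100 nM triptolide with 70767 counts, DMSO replicate 10 with 460014 and replicate 1 of 1000 nM triptolide with 9.63 mil. DMSO replicate 10 had the highest level of all DMSO wells for 7 of the 10 genes. All pairs of replicate wells differed by more than sampling noise. Of 9 genes expected in an osteosarcoma line, 8 had a median of at least 1 TPM in DMSO wells, and COL1A2 was at 0.07 TPM. Of 12 genes of epithelial, blood, endothelial, liver or glial cells, 2 reached 1 TPM, CD68 at 12.6 and EPCAM at 2.38 TPM. TPM, a share of the transcripts in a library after division by transcript length, allows levels of different genes to be compared.

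The mRNAs of ZFP36 proteins carry the letters that these proteins bind. The nonamer UUAUUUAUU, an extended AU-rich element, occurs in the 3′ untranslated region of all 3 ZFP36 family genes and of ZC3H12C, in each of them 1 time. The sites are shown because they mark 4 of the 10 mRNAs as carrying the element that ZFP36 proteins recognise. Each is printed 5′ to 3′ with 10 bases on either side and the nonamer in capitals, from GENCODE release 44 transcripts placed on GRCh38.
ZFP36, chr19:39409196-39409224, plus strand: uaugacgacuUUAUUUAUUcuaauaugau
ZFP36L1, chr14:68788077-68788105, minus strand: aacuguuggaUUAUUUAUUuuagaaauuc
ZFP36L2, chr2:43223448-43223476, minus strand: acuauuuaacUUAUUUAUUaucuugugaa
ZC3H12C, chr11:110170157-110170185, plus strand: uuuacacccaUUAUUUAUUagagauauuu

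Among 19170 protein-coding genes with an annotated 3′ untranslated region, 8.52% held at least 1 such nonamer. The shorter AUUUA pentamer, which the nonamer contains, occurred in 9 of the 10 genes and in 67.8% of all genes. ZC3H12C had 27 pentamers in a 3′ untranslated region of 6104 bases, and ZC3H12A had 0 in 766 bases. A match is a description of the letters and not evidence of binding.

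The genes are compact. Of the 10, 7 have at most 2 exons in the transcript used, against 12.3% of 19550 protein-coding genes. The median gene span was 7175 bases against 27620 bases for all of these genes. ZFP36 (chromosome 19, 39406847 to 39409412) spans 2566 bases, and ZC3H12C (chromosome 11, 110093392 to 110171841) is the longest with 78450 bases. BTG1 lies at chromosome 12, 92140278 to 92145846, BTG2 at chromosome 1, 203305491 to 203309602, and ZC3H12A at chromosome 1, 37474580 to 37484377, all on GRCh38.

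Promoter windows from 250 bases before to 50 bases after the start were available for 9 of the 10 genes from RefSeq on GRCh38.p14, without ZFP36L2. The letters GCGNGGGCG, which EGR factors bind, occurred on either strand in 3 of the 9 windows and in 9.43% of 35116 windows. TATAAA, searched only in the direction of the gene, occurred in 2 of the 9 and in 7.33% of all windows. The stretches are shown because each of these 2 sets of letters is shared by more than 1 of the genes, with the matches in capitals. The TGACG core described below is shared as well, and its stretches are not printed.
BTG2 EGR letters, chr1:203305341-203305382, plus strand: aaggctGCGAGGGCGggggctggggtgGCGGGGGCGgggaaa
ZC3H12A EGR letters, chr1:37474395-37474436, plus strand: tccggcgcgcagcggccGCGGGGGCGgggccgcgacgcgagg
ZC3H12C EGR letters, chr11:110093302-110093343, plus strand: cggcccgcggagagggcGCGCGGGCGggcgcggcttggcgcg
ZC3H12A TATA letters, chr1:37474536-37474577, plus strand: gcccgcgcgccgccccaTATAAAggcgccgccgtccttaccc
BTG1 TATA letters, chr12:92145855-92145896, minus strand: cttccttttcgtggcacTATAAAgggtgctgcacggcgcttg

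BTG2 held the EGR letters at 2 positions within 42 bases. The TGACG core of cyclic AMP response elements, on either strand, occurred in 4 of the 9 windows, those of ZFP36L1, ZC3H12A, BTG1 and BTG2, and in 24.6% of all windows. The AP-1 letters TGANTCA, searched on both strands, occurred in 0 of the 9 windows and in 7.71% of all windows. The full cyclic AMP response element (TGACGTCA), the E-box (CACGTG), the serum response element and the NF-kB site likewise occurred in 0 of the 9, and in 1.85%, 7.26%, 1.29% and 5.91% of all windows, respectively. The ETS letters CCGGAAG occurred in 1 of the 9, that of BTG3, and in 10.3% of all windows.

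Untreated levels spanned a wide range. ZFP36L1 was the most abundant of the 10 mRNAs, with a median of 124 TPM over 18 DMSO wells (78.2 to 246), and exceeded the next gene in all 18 wells. BTG3 followed with 45.6 TPM (33.7 to 76.8) and TOB2 with 38.1 TPM (31.4 to 48), and these neighbours overlapped, BTG3 being higher in 13 of 18 wells. TOB1 had 23.1 TPM (18.9 to 31.6) and lay below TOB2 in every well.

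The next 3 genes did not separate. BTG1 had a median of 14.1 TPM (8.04 to 20.1), ZFP36L2 of 12.6 TPM (9.73 to 22.3) and BTG2 of 11.8 TPM (9.76 to 20.2), with BTG1 above ZFP36L2 in 12 and ZFP36L2 above BTG2 in 11 of 18 wells. ZFP36 had 9.37 TPM (6.85 to 13.4), below BTG2 in 17 of 18 wells. ZC3H12C with 5.21 TPM (3.32 to 12.4) and ZC3H12A with 4.88 TPM (2.85 to 6.62) were lowest and in no fixed order, ZC3H12C being higher in 9 of 18 wells. Their paralogs BTG4, ZC3H12B and ZC3H12D had medians of 0.015, 0.525 and 0.01 TPM.

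**Figure D1:**
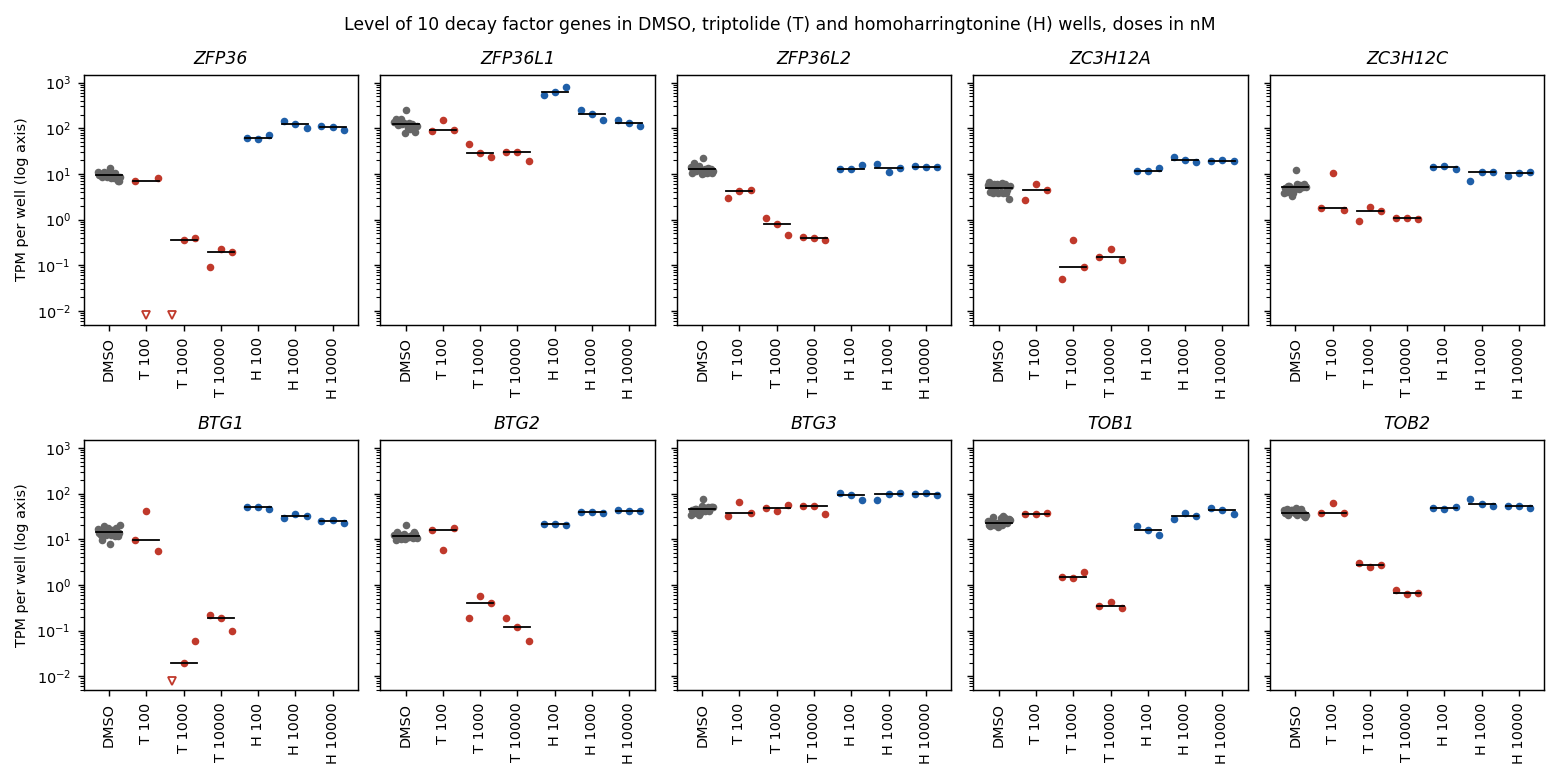
Level of each gene in TPM, on a log axis, in every DMSO well (grey, 18 wells) and every well of triptolide (T, red) and homoharringtonine (H, blue) at the doses given in nM, with black lines at the medians and open triangles for wells listed at 0. At 1000 and 10000 nM triptolide the wells of 9 genes lie below all DMSO wells, and BTG3 stays within the DMSO range, whose highest well is the shallow replicate 10.

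The 3 wells of every compound at every dose were set against the 18 DMSO wells, to ask which transcripts the treatment changed. A gene counted as differentially expressed when edgeR's quasi-likelihood test gave an adjusted p-value under 0.05 (Benjamini-Hochberg, over all genes tested) together with a log2(Fold Change) beyond 1 or -1. The scaling places the bulk of genes at no change, so that a fold change is relative to most other transcripts in the well. The comparisons share their DMSO wells.

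Levels of 9 of the 10 mRNAs fell with triptolide at the higher doses. At 1000 nM, 9 genes were lower and 0 higher, where 30.4% of all genes tested were lower and 13.9% higher. At 10000 nM the counts of the 10 were the same, 9 lower and 0 higher, with 30.2% of all genes lower and 16.2% higher. Their median log2(Fold Change) was -3.35 at 1000 nM and -4.72 at 10000 nM, against -0.21 and -0.17 for all genes tested. BTG3 was the gene that did not fall.

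Among the ZFP36 family, ZFP36 itself, the founding tristetraprolin gene, fell furthest. Its 3 wells with 1000 nM triptolide had 0, 0.35 and 0.40 TPM, and those with 10000 nM had 0.09, 0.23 and 0.20 TPM. All 6 lay far below the lowest DMSO well at 6.85 TPM, and they rested on 35 and 17 expected counts in all. The log2(Fold Change) was -4.23 ± 0.33 (SE) at 1000 nM and -5.56 ± 0.30 at 10000 nM, that is 47.1-fold lower, with adjusted p-values of 2.56e-11 and 2.17e-14 in edgeR.

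ZFP36L2 had 1.08, 0.81 and 0.47 TPM at 1000 nM and 0.41, 0.40 and 0.35 TPM at 10000 nM, all below its lowest DMSO well. The log2(Fold Change) of ZFP36L2 was -3.53 ± 0.23 (SE) and -4.33 ± 0.20. ZFP36L1 fell less, with 44.9, 28.4 and 23.9 TPM at 1000 nM and 30.4, 30.4 and 19.2 TPM at 10000 nM against 78.2 TPM in the lowest DMSO well. With a log2(Fold Change) of -1.28 ± 0.14 and -1.46 ± 0.15, it stayed the most abundant ZFP36 family mRNA.

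The 2 Regnase genes differed in how far they fell. ZC3H12A, which encodes the endonuclease Regnase-1, had 0.05, 0.35 and 0.09 TPM at 1000 nM and 0.15, 0.23 and 0.13 TPM at 10000 nM. These values rest on 20 and 29 expected counts in all, and every well was below all DMSO wells. The fall was 20.2-fold and 21.0-fold, with adjusted p-values of 1.71e-10 and 9.16e-13 in edgeR. ZC3H12C had 0.94, 1.86 and 1.55 TPM at 1000 nM and 1.08, 1.07 and 1.04 TPM at 10000 nM, also below all DMSO wells, and fell 2.23-fold and 3.06-fold. With DESeq2 its log2(Fold Change) at 1000 nM was -0.98, and with RLE size factors -0.99, both short of the threshold.

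BTG1 had the largest fall of the 10 genes at both doses. This antiproliferative gene was at 0, 0.02 and 0.06 TPM at 1000 nM and 0.22, 0.19 and 0.10 TPM at 10000 nM, all below its DMSO wells. The wells held 13 expected counts in all at 1000 nM, and 3, 2 and 2 at 10000 nM. The mean transcript length that the authors' estimate assigned to BTG1 varied from 504 to 4680 bases between triptolide wells, which moves its TPM and not its expected count. Between DMSO wells this length varied from 1203 to 2562 bases for BTG1 and from 1185 to 2582 bases for ZFP36L1. The group sum of 7 counts at 10000 nM has an exact 95% Poisson interval of 2.81 to 14.4, which covers counting error only. Its log2(Fold Change) was -5.99 ± 0.31 (SE) and -7.21 ± 0.26, or 63.8-fold and 148-fold lower.

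BTG2, a p53 target and immediate-early gene of the same family, had 0.19, 0.56 and 0.40 TPM at 1000 nM and 0.19, 0.12 and 0.06 TPM at 10000 nM. All wells lay below 9.76 TPM, the lowest DMSO well, and the log2(Fold Change) was -4.08 ± 0.21 (SE) and -5.65 ± 0.22. TOB1 had 1.52, 1.4 and 1.88 TPM at 1000 nM and 0.34, 0.43 and 0.32 TPM at 10000 nM. TOB2 had 2.98, 2.41 and 2.71 TPM, then 0.79, 0.62 and 0.67 TPM. Both TOB mRNAs were below all DMSO wells, with log2(Fold Change) values of -2.95 ± 0.21 (SE) and -3.16 ± 0.16 at 1000 nM and of -5.14 ± 0.25 and -5.05 ± 0.18 at 10000 nM.

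BTG3 was the exception. Its wells had 49.2, 41.3 and 56.7 TPM at 1000 nM and 53.2, 53.7 and 36.3 TPM at 10000 nM, within the DMSO range of 33.7 to 76.8 TPM. Without the shallow DMSO replicate 10 this range ended at 52.3 TPM, and 3 of the 6 wells were above it. On the scale of the fit its log2(Fold Change) was 0.83 ± 0.13 (SE) and 0.84 ± 0.13, with adjusted p-values of 4.77e-06 and 3.39e-06 in edgeR, under the fold threshold. With DESeq2 the values were 1.01 and 1.02, past it. The direction depended on the scaling, since with library sizes set to mitochondrial mRNA the values were -1.63 and -1.92. That scaling moved the median of all genes by -2.47 and -2.76, so that BTG3 remained above the bulk of genes under it. With library sizes alone, which moved that median by -0.46 and -0.53, BTG3 was at 0.37 and 0.31. BTG3 has 5 exons and a span of 19293 bases, while the other BTG and TOB genes have 2 exons. ZC3H12A and ZC3H12C, which fell, have 6 exons each. Whether exon number or span bears on these values was not tested.

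Of the 10 genes, 7 have at most 2 exons, and ZC3H12A, ZC3H12C and BTG3 have 5 or 6. At 1000 nM triptolide, protein-coding genes with at most 2 exons had a median log2(Fold Change) of -1.71 (1074 genes), and 59.9% of them were differentially expressed and lower. Genes with more exons had a median of -0.12 (13250 genes), with 29.4% lower. Protein-coding genes with a span under 10000 bases, also 7 of the 10, had a median of -0.16, with 35.3% lower. All genes tested, noncoding genes included, had a median of -0.21, with 30.4% lower. With 1000 nM homoharringtonine the genes with at most 2 exons had a median of -0.34, with 32.5% lower and 20.9% higher. At 1000 nM triptolide, genes with 1 nonamer in the 3′ untranslated region had a median of -0.46 (1035 genes) against -0.17 without one (12974 genes). These shares are descriptions, the classes overlap, and no test of the difference was made.

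The lowest triptolide dose gave a mixed picture. At 100 nM, 1 of the 10 genes was higher and 2 were lower, where 11.4% of all genes were higher and 20.9% lower. Both counts lay near these shares. TOB1 was the higher one, with 35.8, 35.4 and 38.2 TPM in the 3 wells, all above the highest DMSO well at 31.6 TPM. These wells include the library of 70767 counts, in which a TPM rests on few reads. TOB1 had a log2(Fold Change) of 1.11 ± 0.16 (SE), and of 1.14 without the libraries under 10 mil. It was at 0.79 with library sizes alone and -0.53 with mitochondrial mRNA scaling, which moved the median of all genes by -0.34 and -1.66.

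ZFP36L2 had 2.90, 4.2 and 4.38 TPM at 100 nM, below all DMSO wells, and fell by 1.19 ± 0.19 (SE) on the log2 scale. These wells, too, include the library of 70767 counts. Without the libraries under 10 mil the log2(Fold Change) of ZFP36L2 was -1.15. ZC3H12C had 1.82, 10.7 and 1.61 TPM, of which the middle value came from the library of 70767 counts and rested on 2 expected counts. It fell by 1.11 ± 0.26 (SE). Leaving out replicate 1 took ZFP36L2 to -0.93, and leaving out replicate 3 took ZC3H12C to -0.91, each short of the threshold.

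BTG2 and TOB2 passed the adjusted p-value at 100 nM with log2(Fold Change) values of 0.88 ± 0.13 (SE) and 0.62 ± 0.14. The 2 deeper BTG2 wells had 15.6 and 17.5 TPM, and the shallow well had 5.81 TPM from 1 count. TOB1, TOB2 and BTG2 thus had positive values at 100 nM, which were negative (-0.53, -0.91 and -0.83) with mitochondrial mRNA scaling, and were among the genes that fell at the higher doses. ZFP36L1 was at 0.36 ± 0.13, while ZFP36, ZC3H12A, BTG1 and BTG3 did not pass the adjusted p-value at this dose, with log2(Fold Change) values between -0.37 and 0.24.

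Over the 9 triptolide wells a slope on log10 dose passed the adjusted p-value for 8 of the 10 genes, all downward, where 24.7% of all genes had a slope in either direction. The steepest was BTG1 with -3.84 ± 0.41 (SE) per 10-fold dose on the log2 scale, followed by BTG2 with -3.40 ± 0.32. ZFP36L1 had the shallowest of these slopes with -0.94 ± 0.15. ZC3H12C, already low at 100 nM, was at -0.35 ± 0.19 with an adjusted p-value of 0.188, and BTG3 at 0.29 ± 0.13 with an adjusted p-value of 0.122 in edgeR.

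Homoharringtonine raised members of all 3 families. At 100 nM, 7 of the 10 genes were higher and 0 lower, where 15.6% of all genes were higher and 19.3% lower. At 1000 nM the counts were 6 and 0, with 21.5% of all genes higher and 20.9% lower, and at 10000 nM they were 6 and 0 again, with 23.6% higher and 23.4% lower. Higher at all 3 doses were ZFP36, ZC3H12A, ZC3H12C, BTG1, BTG2 and BTG3, and ZFP36L1 was higher at 100 nM. The median log2(Fold Change) of the 10 was 1.44, 1.07 and 1.08 with increasing dose, against -0.03, -0.01 and -0.05 for all genes tested.

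ZFP36 had the largest rise. Its wells had 61.8, 59.6 and 71.8 TPM at 100 nM, 147, 125 and 102 TPM at 1000 nM, and 113, 105 and 91.3 TPM at 10000 nM. The lowest of these 9 wells was far above the highest DMSO well at 13.4 TPM. The rise was 8.26-fold, 14.4-fold and 10.6-fold, with log2(Fold Change) values of 3.05 ± 0.12 (SE), 3.85 ± 0.13 and 3.41 ± 0.11 and an adjusted p-value of 9.98e-18 in edgeR at 1000 nM. At 1000 nM ZFP36 thus reached a level close to that of ZFP36L1 in DMSO wells.

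The ZFP36L1 mRNA peaked at the lowest dose. It had 535, 610 and 796 TPM at 100 nM, 252, 204 and 154 TPM at 1000 nM, and 153, 131 and 115 TPM at 10000 nM. Only the wells at 100 nM all stood above the DMSO range, which ended at 246 TPM in the shallow replicate 10 and at 159 TPM without it. The log2(Fold Change) was 2.73 ± 0.10 (SE), 0.92 ± 0.12 and 0.31 ± 0.12, past the adjusted p-value at each dose and past the fold threshold at the first.

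ZFP36L2 did not follow its paralogs. It had 12.6, 12.95 and 15.8 TPM at 100 nM, 16.7, 11.2 and 13.2 TPM at 1000 nM, and 14.96, 13.9 and 14.5 TPM at 10000 nM, all inside the DMSO range. ZFP36L2 had a log2(Fold Change) of 0.38 ± 0.13 (SE), 0.16 ± 0.14 and 0.20 ± 0.12, with an adjusted p-value of 0.0147 at 100 nM and of 0.313 and 0.13 at the higher doses in edgeR. The 3 ZFP36 paralogs carry the same nonamer shown above and had unlike values under this compound. Among all protein-coding genes tested at 1000 nM, 28.2% of those with 1 nonamer were higher, against 22.3% of those with 0. Whether the nonamer bears on these values was not tested.

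ZC3H12A had 11.8, 11.54 and 13.8 TPM at 100 nM, 23.1, 20.1 and 17.8 TPM at 1000 nM, and 19.3, 20.5 and 19.1 TPM at 10000 nM. All 9 wells exceeded the highest DMSO well at 6.62 TPM, and the rise was 3.02-fold, 4.53-fold and 3.85-fold. ZC3H12C had 14.1, 15.3 and 13.1 TPM at 100 nM, above all DMSO wells, and between 7.05 and 11.1 TPM in the 6 wells at the higher doses. Those 6 overlapped the DMSO range through replicate 10 at 12.4 TPM, and exceeded the other 17 DMSO wells, which ended at 6.12 TPM. The log2(Fold Change) of ZC3H12C was 1.79 ± 0.15 (SE), 1.02 ± 0.17 and 1.07 ± 0.16, close to the threshold at 1000 and 10000 nM. Leaving out replicate 3 took these last values to 0.82 and 0.93, and leaving out replicate 2 took the one at 1000 nM to 0.996, also short of the threshold. With mitochondrial mRNA scaling they were 0.90 and 0.83, and with library sizes alone the one at 1000 nM was 0.89.

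BTG1 and BTG2 rose with opposite orders of dose. BTG1 had 51.3, 51.0 and 45.9 TPM at 100 nM, 29.4, 34.9 and 31.6 TPM at 1000 nM, and 25.6, 26.6 and 23.1 TPM at 10000 nM, always above the highest DMSO well at 20.1 TPM. The mean transcript length assigned to BTG1 had medians of 1533, 1674 and 2267 bases with increasing dose, which lowers its TPM and not its expected counts. Those counts were 5656, 5444 and 4958 in all. BTG2 had 21.5, 21.1 and 21.0 TPM at 100 nM, 38.9, 40.2 and 37.0 TPM at 1000 nM, and 43.7, 40.97 and 41.4 TPM at 10000 nM, above all DMSO wells. Over the 9 homoharringtonine wells the slope on log10 dose was -0.34 ± 0.08 (SE) for BTG1 and 0.34 ± 0.08 for BTG2, with adjusted p-values of 0.00715 and 0.00748 in edgeR. Both slopes missed the adjusted p-value without replicate 2 (0.12 and 0.089), and that of BTG2 also without replicate 3 (0.053) and with mitochondrial mRNA scaling (0.25). The BTG2 rise at 100 nM, 1.07 ± 0.10 (SE), was 0.85 with library sizes alone and 0.96 both with mitochondrial mRNA scaling and with a filter of at least 10 counts in every well.

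BTG3 had 105, 94.1 and 71.3 TPM at 100 nM, 71.0, 98.2 and 102 TPM at 1000 nM, and 97.5, 101 and 94.3 TPM at 10000 nM. In DMSO wells the highest value was 76.8 TPM in replicate 10 and 52.3 TPM without it, so that 7 of the 9 wells exceeded all DMSO wells. The log2(Fold Change) was 1.28 ± 0.12 (SE), 1.12 ± 0.12 and 1.10 ± 0.12. It was 0.98 at 1000 nM with library sizes alone and 0.84 at 10000 nM with mitochondrial mRNA scaling, both short of the threshold.

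The TOB mRNAs stayed within the fold threshold at all doses. TOB1 had 19.96, 16.02 and 12.2 TPM at 100 nM, 27.9, 38.4 and 32.8 TPM at 1000 nM, and 49.1, 43.8 and 35.7 TPM at 10000 nM. The log2(Fold Change) of TOB1 went from -0.33 ± 0.15 (SE) with an adjusted p-value of 0.056 to 0.57 ± 0.14 and 0.80 ± 0.14, both of which passed the adjusted p-value in edgeR. TOB2 had between 46.1 and 51.8 TPM at 100 nM, between 53.1 and 74.8 TPM at 1000 nM and between 47.6 and 53.5 TPM at 10000 nM. Its log2(Fold Change) of 0.55 ± 0.12 (SE), 0.79 ± 0.13 and 0.34 ± 0.11 passed the adjusted p-value and not the fold threshold.

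A slope on log10 dose passed the adjusted p-value for 5 of the 10 genes under homoharringtonine, 2 upward and 3 downward. This count lay near the share of all genes, of which 44.0% had a slope in either direction. TOB1 with 0.55 ± 0.10 (SE) and BTG2 were the upward ones. ZFP36L1 with -1.22 ± 0.12, BTG1 and ZC3H12C with -0.37 ± 0.12 were the downward ones. The other 5 genes had slopes between -0.11 and 0.17. Without replicate 2, the number of genes with a slope was 2, and the slope of ZC3H12C also missed the adjusted p-value with library sizes alone (0.087).

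**Figure D2:**
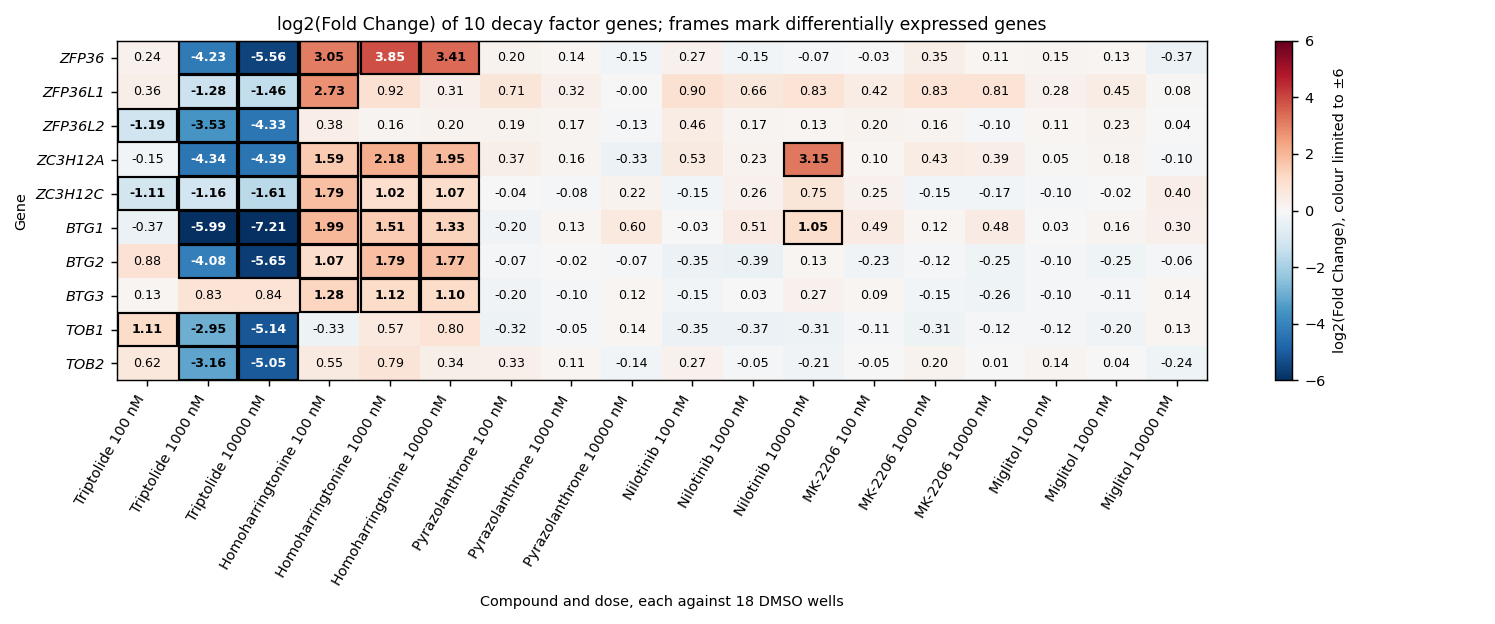
log2(Fold Change) of the 10 genes (rows) under 6 compounds at 3 doses (columns), each against the same 18 DMSO wells, with red for higher and blue for lower levels. Frames and bold type mark differentially expressed genes, which lie under triptolide and homoharringtonine except for ZC3H12A and BTG1 at 10000 nM nilotinib.

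Triptolide acts on transcription and homoharringtonine on the ribosome, and their wells were compared directly at equal dose. At 100 nM, 7 of the 10 genes were higher with homoharringtonine and 1 lower, where 27.4% of all genes were higher and 20.5% lower. At 1000 nM, 9 were higher and 0 lower, with 35.9% of all genes higher and 22.6% lower. At 10000 nM the counts were again 9 and 0, with 37.9% higher and 30.2% lower.

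The gene that was not differentially expressed at 1000 and 10000 nM was BTG3 in both cases. Its log2(Fold Change) between the compounds was 0.31 ± 0.21 (SE) and 0.17 ± 0.13, with adjusted p-values of 0.232 and 0.238 in edgeR. The range of 2 SE around the estimate was -0.12 to 0.73 at 1000 nM and -0.09 to 0.42 at 10000 nM. At 100 nM BTG3 was 2.10-fold higher with homoharringtonine, with a log2(Fold Change) of 1.07 ± 0.20 that dropped to 0.88 without replicate 1.

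The widest gaps were those of ZFP36 and BTG1. At 10000 nM ZFP36 had 91.3 to 113 TPM with homoharringtonine and 0.09 to 0.23 TPM with triptolide, a log2(Fold Change) of 8.88 ± 0.22 (SE) or 473-fold. BTG1 had 23.1 to 26.6 TPM against 0.10 to 0.22 TPM, a log2(Fold Change) of 8.46 ± 0.18. The triptolide side of both rests on 17 and 7 expected counts. BTG2 followed with 7.34 ± 0.18 and ZC3H12A with 6.25 ± 0.17.

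TOB1 was the gene whose order turned with dose. At 100 nM it was lower with homoharringtonine (12.2 to 19.96 TPM) than with triptolide (35.4 to 38.2 TPM), by 1.51 ± 0.20 (SE) on the log2 scale and 2.85-fold. At 1000 nM it was 11.6-fold and at 10000 nM 57.9-fold higher with homoharringtonine. Under mitochondrial mRNA scaling the difference at 100 nM was 0.12. BTG2 and TOB2 were not differentially expressed between the compounds at 100 nM, with log2(Fold Change) values of 0.11 ± 0.20 and -0.12 ± 0.18.

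**Figure D3:**
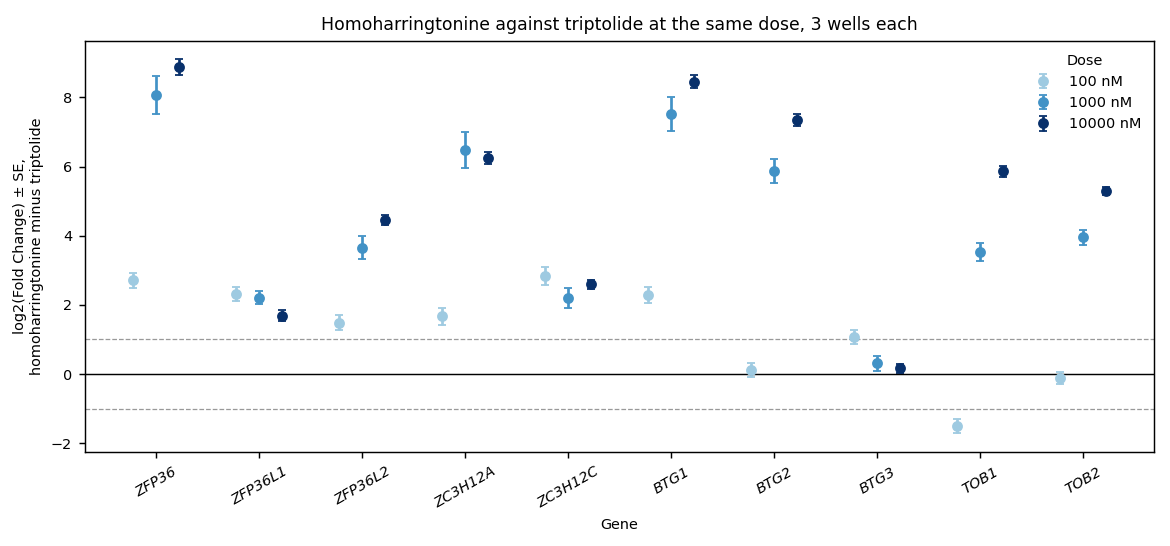
log2(Fold Change) of homoharringtonine against triptolide at the same dose, as estimate ± SE over 3 wells per compound, for each of the 10 genes at 100, 1000 and 10000 nM, with dashed lines at the fold threshold of 1 and -1. BTG3 nears 0 at the higher doses, and TOB1 moves from -1.51 to 5.86.

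The slopes on log10 dose differed between the compounds for 8 of the 10 genes, 7 with a higher slope under homoharringtonine and 1 with a lower one, where 40.4% of all genes differed in either direction. The largest differences were those of BTG2 with 3.83 ± 0.32 (SE), BTG1 with 3.82 ± 0.36 and TOB1 with 3.74 ± 0.22 per 10-fold dose. ZFP36L1 fell with dose under both compounds, and its slopes differed by -0.34 ± 0.20 with an adjusted p-value of 0.192 in edgeR. BTG3 had the lower slope, by -0.44 ± 0.15 with an adjusted p-value of 0.0251, which was 0.051 with DESeq2, 0.071 with RLE size factors, 0.076 without a filter on low counts, 0.22 with library sizes alone and between 0.18 and 0.29 without replicate 1 or 2. With mitochondrial mRNA scaling the difference was 0.03.

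The other 4 compounds changed few of these mRNAs. Over 12 comparisons and 120 tests of a gene, 2 passed both thresholds in edgeR and 2 in DESeq2. In edgeR 13, these included, passed the adjusted p-value, and 36 had an unadjusted p under 0.05. Among all genes tested, between 944 of 18496 (100 nM miglitol) and 5020 of 18616 (10000 nM nilotinib) had such an unadjusted p. The share of all genes past the adjusted p-value alone is not given here. Between 0% and 3.12% of all genes were differentially expressed in these comparisons. Both calls came from 10000 nM nilotinib, where 2 of the 10 genes were higher and 2.41% of all genes were higher.

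ZC3H12A had 50.2, 40.7 and 38.5 TPM at 10000 nM nilotinib, against at most 6.62 TPM in DMSO wells and at most 7.91 TPM at the lower nilotinib doses. The rise was 8.87-fold, or 3.15 ± 0.14 (SE) on the log2 scale, with an adjusted p-value of 3.99e-14 in edgeR. This was a larger fold change than homoharringtonine gave the same gene at any dose, 4.53-fold at most. The other Regnase gene, ZC3H12C, had 8.52, 8.24 and 7.60 TPM and passed the adjusted p-value only, with a log2(Fold Change) of 0.75 ± 0.16.

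BTG1 had 30.7, 24.0 and 24.9 TPM at 10000 nM nilotinib, above all DMSO wells. Its log2(Fold Change) was 1.05 ± 0.13 (SE) with an adjusted p-value of 1.52e-06 in edgeR. It was 0.93 without replicate 1 and 0.38 with mitochondrial mRNA scaling, which moved the median of all genes by -0.70 at this dose. ZFP36, BTG2, BTG3, TOB1, TOB2 and ZFP36L2 did not pass the adjusted p-value there, with log2(Fold Change) values between -0.31 and 0.27.

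ZFP36L1 passed the adjusted p-value, though not the fold threshold, at all 3 nilotinib doses, at 1000 and 10000 nM MK-2206 and at 100 nM pyrazolanthrone. There its log2(Fold Change) lay between 0.66 and 0.90. Its wells in these 6 groups ranged from 113 to 250 TPM and overlapped the DMSO wells, while in 4 of the groups they exceeded the 17 DMSO wells other than replicate 10. BTG1 passed the adjusted p-value at 1000 nM nilotinib, 10000 nM MK-2206 and 10000 nM pyrazolanthrone, with log2(Fold Change) values of 0.51, 0.48 and 0.60, and ZFP36L2 at 100 nM nilotinib with 0.46. Miglitol gave 0 of 10 genes past the adjusted p-value at each of its doses, and 0 genes past both thresholds in DESeq2. With increasing dose, 0, 2 and 4 of the 10 had an unadjusted p under 0.05 in edgeR. Among all genes tested, 944 of 18496, 1563 of 18477 and 4195 of 18519 did.

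Other genes of the decay pathway were counted from lists of names, where a gene is differentially expressed by the same thresholds. Textbook target mRNAs of ZFP36 proteins or Regnase-1, mostly of cytokines and immediate-early factors, comprised 20 genes. With homoharringtonine 13 of 17 tested were higher at 100 nM, 11 of 18 at 1000 nM and 8 of 17 at 10000 nM, where 15.6%, 21.5% and 23.6% of all genes were higher, and 0, 0 and 2 of the list were lower. More of the list were tested here than the 16 under triptolide. The count filter keeps a gene with enough counts in 3 wells, so a gene low in DMSO wells can be tested because treated wells are high. Any such gene was selected by its rise, and its call as higher is no separate result. At 1000 nM TNF, FOS, CXCL8 and PTGS2 rose most, by 7.13 ± 0.40 (SE), 6.34 ± 0.34, 6.25 ± 0.24 and 5.78 ± 0.23 on the log2 scale. The median of the list was 1.65 against -0.01 for all genes. With 1000 nM triptolide, 10 of 16 were lower, where 30.4% of all genes were, among them MYC with -5.62 ± 0.26 and BHLHE40 with -4.84 ± 0.23, and 1 was higher, the cyclin gene CCND1 with 1.06 ± 0.08.

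At 10000 nM nilotinib, where ZC3H12A rose, 11 of 18 tested target mRNAs were higher and 0 lower, where 2.41% of all genes were higher. The list median was 1.70 against 0.01 for all genes. More of the list were tested at this dose than the 16 at the lower nilotinib doses, with the same limit from the count filter. The cytokine mRNAs CXCL8, IL1B, TNF and CXCL3 had the largest log2(Fold Change) values, 8.29 ± 0.23 (SE), 5.88 ± 0.38, 5.71 ± 0.46 and 5.47 ± 0.22, and were picked after their values were seen. At 100 nM nilotinib 2 of 16 were higher, where 0.702% of all genes were. They were CSF2 and LIF, also named after their values were seen. At 1000 nM 0 of 16 were differentially expressed, where 1.13% of all genes were, in either direction.

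Among 15 other binders of AU-rich, stem-loop or related elements, 7 were higher and 0 lower with 1000 nM homoharringtonine, where 21.5% of all genes were higher. NOCT, a relative of the CCR4 deadenylases, rose most with 4.26 ± 0.11 (SE), followed by the polyadenylation element binder CPEB4 with 2.88 ± 0.17. With 1000 nM triptolide 7 of the 15 were lower, where 30.4% of all genes were, among them N4BP1 with -4.51 ± 0.31. NOCT was in both groups, with -3.06 ± 0.22 under triptolide.

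The effector complexes and the signalling genes were counted too, and their shares are to be read against all genes tested, of which 21.5% were higher and 20.9% lower with 1000 nM homoharringtonine, and 13.9% higher and 30.4% lower with 1000 nM triptolide. The counts of higher genes under homoharringtonine lay near these shares in all 4 lists. Of 16 deadenylase genes and partners, 3 were higher with 1000 nM homoharringtonine, CNOT4 with 1.85 ± 0.10 (SE), CNOT10 and CNOT2, and 0 were lower. With 1000 nM triptolide 8 were lower, CNOT6L most with -4.00 ± 0.43, and the poly(A) binding protein gene PABPC1 was higher with 1.16 ± 0.16. Of 13 decapping and 5′-3′ decay genes, 3 were higher with homoharringtonine, the exonuclease XRN1 most with 1.82 ± 0.24, and 3 were lower with triptolide, the decapping factor DCP1B most with -3.10 ± 0.18.

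Of 17 exosome genes, 3 were higher and 1 lower with 1000 nM homoharringtonine, and 2 were higher and 7 lower with 1000 nM triptolide. The nuclease DIS3 with 2.04 ± 0.33 (SE) rose under the first, and EXOSC9 with -2.63 ± 0.24 fell most under the second. Of 10 genes that signal to ZFP36 or Regnase-1, 2 were higher and 1 lower with homoharringtonine, and 4 were lower with triptolide. The phosphatase DUSP1, which shuts off MAP kinases, changed most in both, with 2.07 ± 0.10 and -6.56 ± 0.24.

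**Figure D4:**
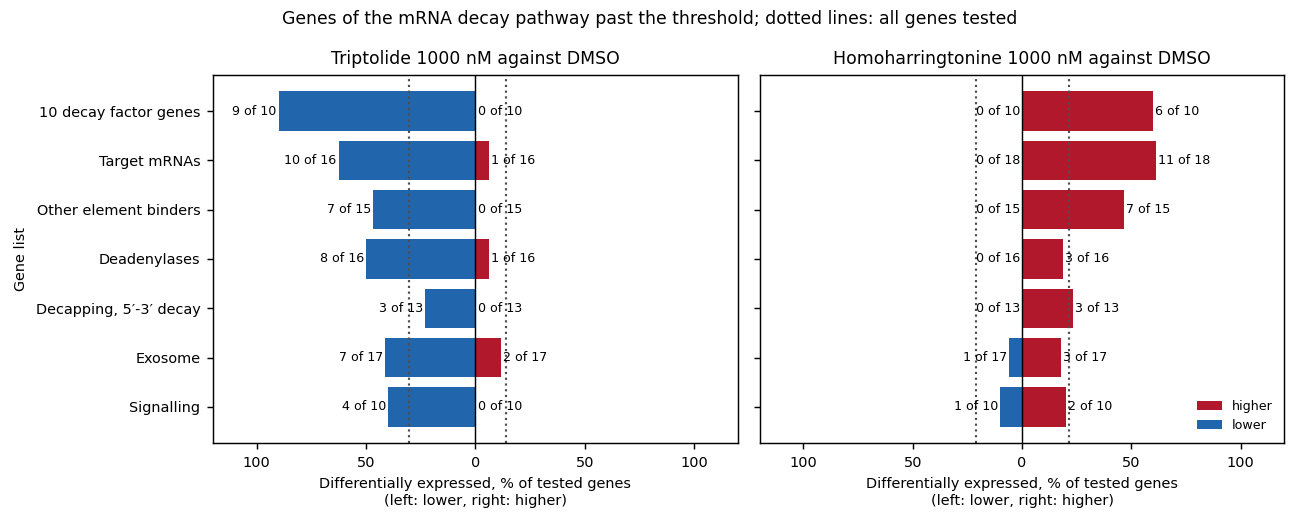
Share of the tested genes of each list that were differentially expressed at 1000 nM triptolide (left panel) or homoharringtonine (right panel) against DMSO, with bars to the left for lower and to the right for higher genes, counts printed beside the bars and dotted lines at the share of all genes tested. The 10 decay factor genes have 9 lower with triptolide and 6 higher with homoharringtonine.

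The pattern of each gene over the 18 comparisons with DMSO was set beside those of 14270 protein-coding genes, by the root mean square difference of the log2(Fold Change) values. KLF10 with 0.34 and JUNB with 0.35 were most like ZFP36, both of them immediate-early transcription factor genes. MAD2L1BP with 0.22 was most like BTG2, RSBN1 with 0.41 most like BTG1, and CEBPA with 0.25 most like TOB2. ZC3H12A had no close match, the stress factor gene DDIT3 being nearest with 0.64. TMX2 with 0.12 was nearest to BTG3. Within the 10 genes TOB1 and TOB2 were the most alike, with 0.40, while the nearest of the others to ZC3H12A was BTG2 with 0.91.

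Some counts may be shared with overlapping or copied genes. TOB1 shares 281 exonic bases with the antisense gene TOB1-AS1, which had 0.94 TPM in DMSO wells, and BTG1 shares 274 with the divergent BTG1-DT at 0.01 TPM. ZFP36L2 shares 826 with a long noncoding RNA gene on the opposite strand, and BTG3 shares 326 with the antisense gene BTG3-AS1. Neither of these partners is among the genes listed for each library. The libraries were stranded, and the sources used here do not give the strand setting of the counting, so that reads from these pairs may be mixed. On its own strand BTG1 shares 503 exonic bases with LINC01619, a long noncoding RNA gene at 0 TPM. ZFP36L1 shares 512 with a long noncoding RNA gene that is not among the genes listed for each library. Strand does not separate these last pairs. The processed pseudogene TOB2P1 had 1.33 TPM, and BTG3P1 and BTG1P1 were at 0 TPM.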

How the data were processed

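Population RNA-seq libraries of 72 U2OS wells were used, grouped by the compound, dose and replicate number in the labels. Per the labels, RNA was extracted with a column kit and libraries were made with a stranded poly(A) kit. The submitters' processing notes name RSEM, HTSeq, DESeq2 and GRCh38, and the versions, the annotation and the strand setting are not given in the sources used here. The expected counts deposited per gene are estimates of reads by the authors' RSEM run, without normalization. For TPM the authors divided by transcript length and fixed the sum of each library, and for the deposited FPKM by transcript length and mapped reads. The mean transcript length of each gene, as the authors' RSEM run gave it, was read too.

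The members and the lists of other genes were chosen with earlier results of these data known. Rounded expected counts entered edgeR 4.0.16 under R 4.3.3, with low genes removed by filterByExpr (smallest count 10), TMM factors, glmQLFit and glmQLFTest, and p-values adjusted by Benjamini-Hochberg over all genes tested. Alternatives were DESeq2 1.42.0, RLE size factors, library sizes without TMM, library sizes set to the counts of mitochondrially encoded mRNAs (mitochondrial mRNA scaling), other filters on low counts, 1 fit of all 72 wells, a replicate block, and leaving out libraries or replicates. Each fit held the 3 wells of a compound and dose and the 18 DMSO wells, the 6 wells of triptolide and homoharringtonine at a dose, or, for slopes on log10 dose, the 9 wells of a compound or the 18 wells of both. Symbols and exons came from GENCODE release 44, which held 56104 of the 60371 identifiers. Named genes are the members, 3 paralogs, up to 4 genes per list with the largest absolute log2(Fold Change) at 1000 nM among those called, and the genes most like a member. At 10000 and 100 nM nilotinib, IL1B, CXCL3, CSF2 and LIF were named outside this rule, after their values were seen, and 1 gene within the rule is not reported here. All 3 libraries under 10 mil counts were kept, and intervals cover counting error only, since amplified reads that carry no molecular identifier are not independent. On simulated counts for 18422 genes of the 1000 nM homoharringtonine comparison, 200 of 200 changed genes were recovered with 2 false calls. For the difference of slopes, 197 of 200 were recovered among 18397 genes with 9 false calls. The simulation gave all genes the same dispersion and altered a balanced set of well-covered genes by a fixed amount. In the measured comparison at 1000 nM homoharringtonine, 42.4% of genes were differentially expressed. Recovery for genes with few counts was not tested.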

Additional observations from a re-analysis of the deposited data

Results flagged for a closer look

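The slope on log10 dose differed between homoharringtonine and triptolide for 8 of the 10 genes in a test of the difference itself (edgeR, 18 wells), which is why they are listed here. The difference, homoharringtonine minus triptolide on the log2 scale per 10-fold dose, was 3.83 for BTG2, 3.82 for BTG1, 3.74 for TOB1, 3.39 for ZFP36, 2.73 for TOB2, 2.43 for ZC3H12A and 1.47 for ZFP36L2. For BTG3 it was -0.442, and that value missed the adjusted p-value under several alternatives. The triptolide wells at 100 nM include the library of 70767 counts, and without the libraries under 10 mil the number of genes was 8 again.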

How the results depend on the processing

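Of 89 values past the threshold, 73 kept their direction and their side of it under every alternative that tested them, and all 89 did without the libraries under 10 mil. With library sizes alone or mitochondrial mRNA scaling, 0 genes were higher at 100 nM triptolide. Under mitochondrial mRNA scaling 7 were lower there, TOB1 was at -0.526, and the TOB1 difference between the compounds at 100 nM was 0.12, so that 0 genes were lower with homoharringtonine. The BTG3 difference of slopes was 0.0273, and 13920, 17398 and 18049 genes were differentially expressed with increasing triptolide dose, against 5988, 8223 and 8607. With DESeq2, with RLE size factors and with the replicate block, 1 gene, BTG3, was higher at 1000 and at 10000 nM triptolide. A filter of at least 10 counts in every well tested as few as 2 of the 10 genes, since shallow wells fail it. It left 0 higher and 0 lower at 100 nM triptolide, 4 lower at 1000 and at 10000 nM, and 3 higher at each homoharringtonine dose. Between the compounds it left 1, 5 and 5 higher and 0 lower at 100 nM, with 0 for the other 4 compounds, 2 triptolide slopes and 1 difference of slopes. It called 123, 3160 and 3627 genes for triptolide and 2065, 2613 and 2935 for homoharringtonine, where the main counts for the latter were 6571, 8133 and 9088.

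Same-numbered wells did not deviate together: in 0 of 18 comparisons did every pair correlate above 0.1. The fit with the replicate block left 1 gene lower at 100 nM triptolide and kept 86 of the 89 values, the others being ZC3H12C at 100 and 1000 nM triptolide (-0.94 and -0.82) and BTG2 at 100 nM homoharringtonine (0.98). Leaving out 1 replicate gave 1 to 2 genes lower at 100 nM triptolide, 0 to 1 higher at 10000 nM triptolide, and 2 to 5 homoharringtonine slopes. At 10000 nM triptolide, ZFP36, BTG1, BTG2 and ZC3H12A rest on few counts, which limits the precision of their fold changes.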
